A study of Mus musculus with 7 samples.

Results

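The genes described here encode the machinery that releases transmitter from synaptic vesicles. They were the 50 genes of a list given by symbol, and all 50 had an entry among the 17732 genes of the authors' deposited table. The list was chosen with earlier results of these data known, so shares of its genes called are description only. RNA was taken from medial prefrontal cortex after a remote memory had been retrieved, in wild-type (WT) male mice of the 129SvEv strain. Libraries fell into 2 groups, 3 labelled CFC and 4 labelled SC, and the labels give no meaning of these names and no age. Both groups share strain, sex, genotype and tissue, and differ only in the treatment label. The series concerns parvalbumin interneurons, oligodendrocytes and safety learning, so the question put here is whether transcripts of the release machinery differed between CFC and SC.

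At a nerve terminal, vesicles filled with transmitter dock at the active zone, a protein scaffold opposite the receiving neuron. SNARE proteins of the vesicle and of the plasma membrane zip together and pull the membranes towards fusion, and complexins and Munc13 proteins prepare this step. When an action potential admits calcium, sensors of the synaptotagmin family trigger fusion, and NSF with its SNAP adaptors then takes the SNARE complexes apart for another round. In cortex the main excitatory neurons load vesicles with glutamate through VGLUT1, encoded by Slc17a7.

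One release gene, Mctp1, differed between the groups with an adjusted p-value under 0.05, and none of the other 48 with an adjusted p-value passed that threshold. Mctp1 had a positive log2 fold change of 0.44. Syt1, Snap25 and Vamp2, which encode a calcium sensor and 2 SNARE proteins of fusion, lay near 0 on the log2 scale in the authors' deposited table, at 0.0079, -0.0075 and 0.02. Those not called but with the smallest p-values were Stx1a and Cplx2, both negative, and Pclo and Syt10, both positive. Neither the labels nor the file headers state which group is the numerator, so differences are given by sign and no group is called higher. Below, a log2 difference is the deposited log2 fold change, and the value after ± is its deposited standard error.

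The authors' deposited table gives, for each gene, a mean normalized count over all libraries, a log2 fold change with its standard error, and p-values. Values of single libraries were not analysed here, so the spread between libraries enters only through the standard errors, and a library that stands apart could not be looked for. Nothing in the labels says that the libraries came from separate animals, so p-values measure only the spread between these libraries. Of the 13060 genes with an adjusted p-value, 67 were called, 0.513% of them, 48 positive (0.368%) and 19 negative (0.145%). These 13060 listed genes are meant by all genes tested. An unadjusted p-value under 0.05 was held by 8.10% of them, 4.56% positive and 3.54% negative. Markers of cortical excitatory neurons were present, with mean counts from 223 to 106077 in the authors' deposited table. The release genes were abundant: 47 of 50 lay above the median mean count of 255 over all listed genes, and their own median was 4810. In bulk tissue, fewer cells of a type and less RNA per cell cannot be told apart.

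Levels are compared between genes as the mean normalized count per kb of the longest annotated transcript, computed from the authors' deposited table. That transcript was taken whether coding or not, and has only 3 exons for Snap25 and 2 for Vamp1. Levels and their order therefore depend on this choice of length. On this scale Slc17a7 was highest at 11270 per kb, followed by Vamp2 at 10916, Snap25 at 8156 and Syt1 at 7696. These 4 genes encode the glutamate transporter of the vesicle, its SNARE, a SNARE of the plasma membrane and the fast calcium sensor. Next in order were Rab3a at 5810 per kb, Syn1 at 5534, Syp at 5502 and Cplx2 at 4982, all of them vesicle-associated proteins or fusion regulators. At the other end were Syt9 at 61.9 per kb, Sv2c at 47.8 and Mctp2 at 5.44. Active zone genes covered a narrower span, from 102 per kb for Unc13c to 1300 for Bsn. The deposited errors are those of a difference and not of a level, so no spread can be given for this order. Counting over all exons of a gene in place of its longest transcript lowered the level of 21 of the 50 genes more than 1.5 times, Mctp1 among them, but moved no gene by more than 6 places in the order. With all exons, Syn1 at 5471 and Cplx2 at 4982 per kb stood above Syt1 at 4449. Exons of 18 of the 50 genes overlap those of another gene in GENCODE M21, and since the strand setting is not given in the sources used here, their reads may include those of the neighbour.

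**Figure D1:**
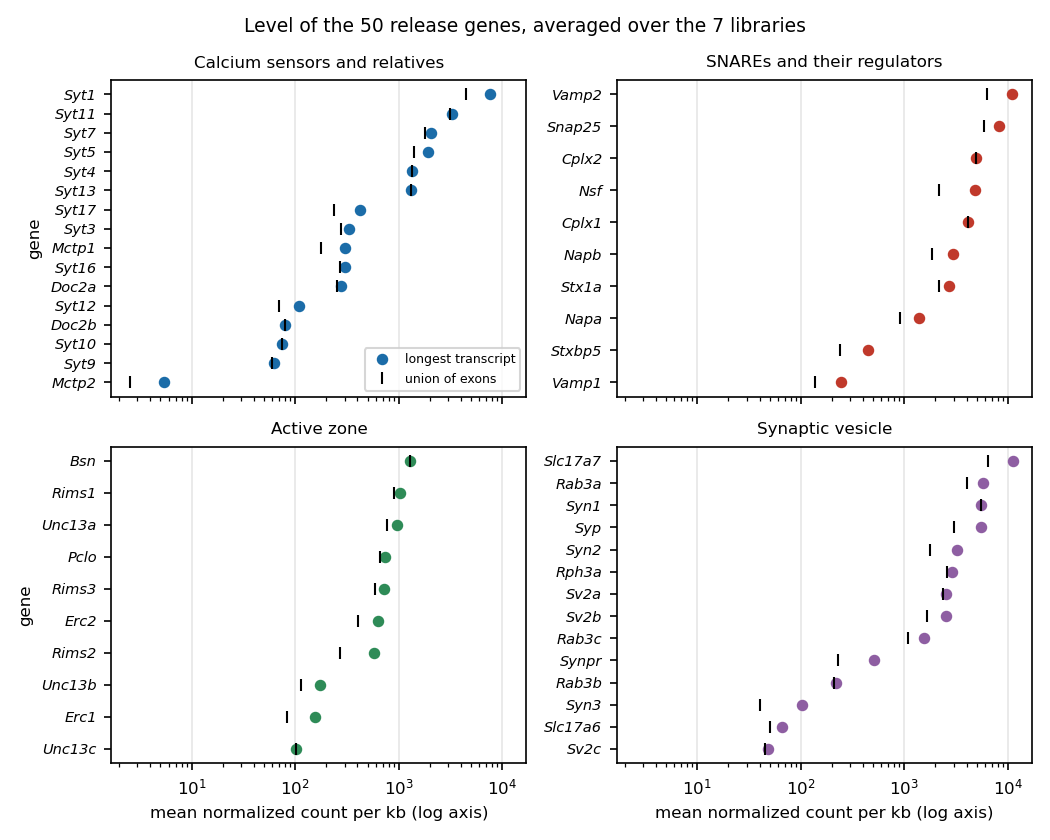
Mean normalized count per kb (log axis) of the 50 release genes, averaged by the authors over the 7 libraries, in 4 panels by role. Dots use the longest transcript and black ticks the union of exons. By the dots, Slc17a7, Vamp2, Snap25 and Syt1 stand highest and Mctp2 lowest.

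Several families were dominated by a single paralogue in this tissue. Within the pair of vesicular glutamate transporters, Slc17a7 made up 99.4% of the summed level per kb and Slc17a6, which encodes VGLUT2, 0.576%. Vamp2 held 97.8% of the Vamp1 and Vamp2 level, Syp 91.6% of the level it shares with Synpr, and Mctp1 98.3% of the Mctp level. Other families were shared more evenly. Cplx1 and Cplx2 stood at 45.1% and 54.9%, Sv2a and Sv2b at 49.6% and 49.4%, and Rims1, Rims2 and Rims3 at 44.0%, 25.01% and 31.0%. Among the 12 synaptotagmins, Syt1 gave 40.8% of the summed level per kb, Syt11 17.2%, Syt7 10.8% and Syt5 10.2%. With all exons as the length, the share of Syt1 was 30.8%, and Rims1, Rims2 and Rims3 stood at 51.1%, 15.3% and 33.6%.

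The calcium sensors and their relatives comprised 16 genes, 15 of them with an adjusted p-value. Of these 15, 6 were positive and 9 negative, and their median log2 difference was -0.01, beside -0.0017 over all genes tested. The share called was 6.67%, 1 of 15, beside 0.513% of all genes tested, and is description only. Mctp1 (ENSMUSG00000021596) lies on chromosome 13 of GRCm38, from 76384535 to 77031810 on the plus strand, in GENCODE M21. It encodes a membrane protein with several C2 domains, the fold that binds calcium and lipids, and its fly counterpart is a calcium sensor of the endoplasmic reticulum that acts in presynaptic homeostasis. In the authors' deposited table its mean count was 1442, its log2 fold change 0.44 ± 0.09, and its adjusted p-value 8.88e-04. The 95% confidence interval of the log2 fold change, computed from that standard error, ran from 0.26 to 0.61, or from 1.201-fold to 1.525-fold. Its lower end lies at a 1.2-fold change, and with a change of at most 1.2-fold as the null hypothesis the gene was no longer called (adjusted p = 1). No exon of Mctp1 overlaps that of another gene in GENCODE M21.

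Mctp2, the paralogue of Mctp1, had a mean count of 31.6 and no adjusted p-value in the deposited table of the authors. Its log2 fold change there was 0.55 ± 0.37, and its interval, from -0.18 to 1.28, includes both 0 and the value of Mctp1. The Doc2 proteins are C2-domain sensors linked to spontaneous and slow release. In the authors' deposited table Doc2a had a log2 difference of -0.10 ± 0.09, and Doc2b one of 0.37 ± 0.38 (adjusted p-values 0.932 and 0.979). Exons of Doc2a overlap those of Ino80e, on the opposite strand, over 1103 of 2803 bases in GENCODE M21. The estimate for Doc2b was thus almost as far from 0 as that of Mctp1, but its error was wider, and its interval ran from -0.37 to 1.11.

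Of the 6 synaptotagmins that bind calcium well, 4 were positive and 2 negative, and none was called, beside 0.513% of all genes tested. Syt1, the sensor of fast synchronous release, had a log2 difference of 0.0079 ± 0.06 in the authors' deposited table. Its interval, from -0.11 to 0.12, corresponds to 0.929-fold to 1.09-fold. Syt7, a slower sensor of high affinity that acts in asynchronous release and facilitation, stood at -0.09 ± 0.06 (adjusted p = 0.818) in the authors' deposited table. Syt3 and Syt5 were at -0.01 and 0.03, each with an interval inside 1.2-fold either way, computed from the authors' deposited table. Syt9, another fast sensor, was at 0.01 with a wider interval, from -0.31 to 0.34.

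Syt10, known as a sensor for secretion of the growth factor IGF-1 in olfactory neurons, had a log2 difference of 0.43 ± 0.19 in the authors' deposited table. That is close to the value of Mctp1, but the mean count of Syt10 was 138 and its adjusted p-value 0.517 (unadjusted 0.0256) in the authors' deposited table. At this precision a log2 fold change of 0.71 would have been needed for a call, computed as the smallest absolute Wald statistic called (3.68) times the standard error. The same bound was 0.32 for Mctp1 and 0.21 for Syt1.

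The 6 synaptotagmins that bind calcium weakly or not at all (Syt4, Syt11, Syt12, Syt13, Syt16 and Syt17) were all negative. None passed 0.05 adjusted or unadjusted, beside 0.513% and 8.10% of all genes tested. Their log2 fold changes ran from -0.15 to -0.01 in the authors' deposited table, with a median of -0.02. Syt11, an inhibitor of endocytosis and the most abundant of them per kb, was at -0.03 ± 0.08. Syt17 had the lowest value, -0.15 ± 0.22 (adjusted p = 0.994) in the authors' deposited table. For Syt13, at -0.01 ± 0.06, the interval was much narrower, from -0.12 to 0.10.

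**Figure D2:**
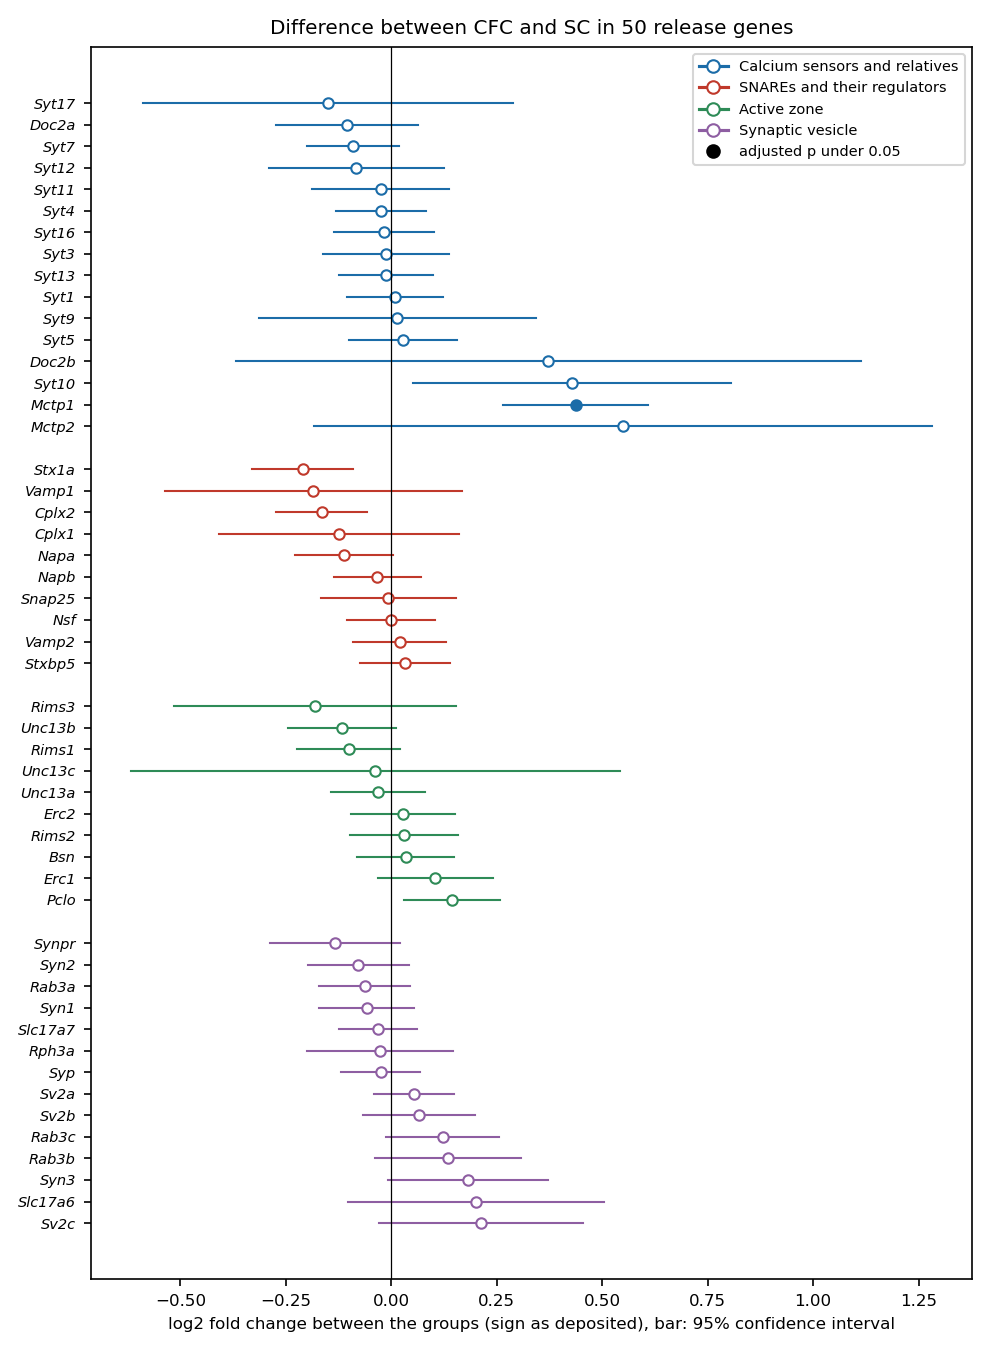
Log2 fold change between CFC and SC (sign as deposited, horizontal axis) of each of the 50 release genes, sorted within 4 roles; bars are 95% confidence intervals from the deposited standard errors. The single filled point is Mctp1, called at an adjusted p-value under 0.05; the intervals of Syt10, Stx1a, Cplx2 and Pclo also lie off 0 but these genes were not called.

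The SNARE proteins, their regulators and the disassembly factors comprised 10 genes. Of these, 8 were negative and 2 positive, where 49.4% of all genes tested were positive. None was called, beside 0.513% of all genes tested. An unadjusted p-value under 0.05 was held by 2 (20.0%), both negative, beside 8.10% of all genes tested, 3.54% negative. Their median log2 fold change was -0.07, computed from the authors' deposited table. Stx1a (ENSMUSG00000007207; chromosome 5, 135023482 to 135051100, plus strand, GRCm38) encodes syntaxin-1A, a SNARE of the plasma membrane. The authors' deposited table gives a log2 difference of -0.21 ± 0.06, and its adjusted p-value of 0.0884 (unadjusted 5.65e-04) missed the threshold. Its interval, from -0.33 to -0.09, corresponds to a change of 0.796-fold to 0.939-fold. Snap25 and Vamp2, whose products join syntaxin in the fusion complex, were at -0.0075 ± 0.08 and 0.02 ± 0.06 in the authors' deposited table. Vamp1, a minor vesicle SNARE here, was at -0.18 ± 0.18 (adjusted p = 0.971) in the authors' deposited table.

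Cplx2 (ENSMUSG00000025867; chromosome 13, 54371349 to 54383917, plus strand, GRCm38) encodes complexin 2, which binds the assembled SNARE complex. In the authors' deposited table its log2 fold change was -0.17 ± 0.06, adjusted p 0.187 (unadjusted 0.00268). Cplx1 had a similar estimate, -0.12 ± 0.15, and its interval, from -0.41 to 0.16, covers 0. Stxbp5, which encodes the inhibitory SNARE-binding protein tomosyn, was at 0.03 ± 0.05 in the authors' deposited table. Of the factors that take the SNARE complex apart, the ATPase gene Nsf was at -0.0013 ± 0.05, Napb at -0.03 ± 0.05 and Napa at -0.11 ± 0.06 in the authors' deposited table. Napa encodes alpha-SNAP, and its interval ended just above 0, at 0.0033.

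Among the 10 active zone genes, 5 were positive and 5 negative, and the median log2 difference was -0.0023. None was called, beside 0.513% of all genes tested. An unadjusted p-value under 0.05 was held by 1, positive (10.0%, beside 8.10% of all genes tested, 4.56% positive). That gene was Pclo (ENSMUSG00000061601; chromosome 5, 14514918 to 14863459, plus strand, GRCm38), which encodes the giant scaffold Piccolo. The authors' deposited table gives a log2 difference of 0.14 ± 0.06, adjusted p 0.391 (unadjusted 0.0125). The exons of Pclo overlap those of 2 antisense genes in GENCODE M21 over 925 bases, and without the strand setting their reads cannot be separated. Bsn, which encodes the related scaffold Bassoon, stood at 0.03 ± 0.06 in the authors' deposited table. Erc1 and Erc2, scaffold genes of the ELKS family, were at 0.10 and 0.03.

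The Munc13 proteins prime vesicles for fusion. Unc13a, the most abundant of the 3 per kb, had a log2 difference of -0.03 ± 0.06 in the authors' deposited table, and Unc13b one of -0.12 ± 0.06. Unc13c, which is known mainly from cerebellum, was at -0.04 ± 0.30, and its interval ran from -0.62 to 0.54. RIM proteins tether calcium channels to the release site. In the authors' deposited table Rims1 and Rims2 were at -0.10 ± 0.06 and 0.03 ± 0.06. Rims3, a short form with a single C2 domain, was lowest of the group at -0.18 ± 0.17 (adjusted p = 0.966).

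The 14 vesicle genes divided into 7 positive and 7 negative, the median log2 difference being 0.01. None passed 0.05 either adjusted or unadjusted, beside 0.513% and 8.10% of all genes tested. Slc17a7 had a log2 difference of -0.03 ± 0.05 in the authors' deposited table, and its interval of -0.12 to 0.06 lies within 1.2-fold either way. Slc17a6 was at 0.20 ± 0.15 (adjusted p = 0.917) in the authors' deposited table, at a mean count of 270. The synapsins tether vesicles in the reserve pool. Syn1 and Syn2 were at -0.06 ± 0.06 and -0.08 ± 0.06, and Syn3 was at 0.18 ± 0.10 (adjusted p = 0.703) in the authors' deposited table. Exons of Syn3 overlap those of Timp3, on the opposite strand, over 1733 bases in GENCODE M21.

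SV2 proteins are vesicle glycoproteins that act in priming, and SV2A is the target of the antiepileptic drug levetiracetam. In the authors' deposited table Sv2a and Sv2b were at 0.05 and 0.07, and Sv2c, the least abundant of the 3, at 0.21 ± 0.12 (adjusted p = 0.784). Syp, which encodes the vesicle marker synaptophysin, was at -0.03 ± 0.05, and its relative Synpr at -0.13 ± 0.08 (adjusted p = 0.795) in the authors' deposited table. The Rab3 proteins are small GTPases of the vesicle surface. Rab3a, the most abundant per kb, was at -0.06 ± 0.05, while Rab3b and Rab3c were at 0.13 ± 0.09 and 0.12 ± 0.07 in the authors' deposited table. Rph3a, whose product rabphilin binds Rab3, was at -0.03 ± 0.09.

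In 15 families of 2 or more listed paralogues, the most abundant member per kb had log2 fold changes from -0.17 to 0.44, with a median absolute value of 0.03. The 30 other paralogues ran from -0.18 to 0.55, with a median absolute value of 0.11, and their median standard error was 0.08 against 0.06 for the leading members, computed from the authors' deposited table. Of the 15 leading members 6 were positive, and of the other 30, 14. By these medians the less abundant paralogues lay farther from 0 and were also less precisely measured. Mctp1 was the exception among the leading members, at 0.44, and the others reached at most 0.17 in absolute value, for Cplx2.

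Over all 49 release genes with an adjusted p-value, 20 were positive (40.8%, beside 49.4% of all genes tested) and the median log2 fold change was -0.02. The share called was 2.04%, 1 of 49, beside 0.513% of all genes tested. Since the genes were chosen with earlier results of these data known, this share is description only. Unadjusted p-values under 0.05 belonged to 5 of 49 members, or 10.2%, beside 8.10% of all genes tested; 3 were positive and 2 negative. Were adjusted p-values up to 0.1 accepted, Stx1a would join Mctp1, beside 0.773% of all genes tested. Stx1a also lay below 0.1 with a mean count of at least 100 (adjusted p = 0.0749). It lay above 0.1, however, with no filter on the mean count (adjusted p = 0.102) and after regression on GC content, length and mean count (adjusted p = 0.240). For most members the intervals were narrow: 31 of 49 lay wholly within a 1.2-fold change either way (63.3%, beside 47.1% of all genes tested), and 44 within 1.5-fold (89.8%, beside 87.9%). Only Mctp1 and Doc2b, Syt10, Syt17 and Unc13c of the calcium-sensor and active zone groups reached beyond 1.5-fold, and none of the SNARE or vesicle genes did.

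The standard errors of 6 release genes were more than 2 times those of genes of similar mean count, 12.2% of 49 beside 1.85% of all genes tested. They were Unc13c (3.77 times), Doc2b (3.49), Syt17 (3.14), Rims3 (2.89), Vamp1 (2.52) and Cplx1 (2.52), named after their values had been seen. Over the 49 members the median ratio was 1.05, and for Mctp1 it was 1.24. By default, DESeq2, which the submitters' processing notes name, pulls a gene's spread towards that of genes of similar abundance but leaves a gene far above that trend at its own estimate; whether it did so for these 6 genes was not tested. Their intervals are wide: that of Cplx1, with a mean count of 8946 in the deposited table of the authors, spans -0.41 to 0.16. A ratio above 2 was also found for all 12 oligodendrocyte markers (median 6.49), for 7 of 10 markers of striatal projection neurons (median of the 10, 3.34) and for 5 of 15 deep-layer markers (median of the 15, 1.42). It was found for 1 of 11 interneuron markers, Pvalb, the parvalbumin gene (2.52; median of the 11, 1.09), and for 1 each of 9 upper-layer, 8 astrocyte and 9 general neuronal markers. None of the 7 excitatory neuron markers or the 7 microglia markers had such a ratio. Which libraries account for the wide errors was not analysed here.

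**Figure D3:**
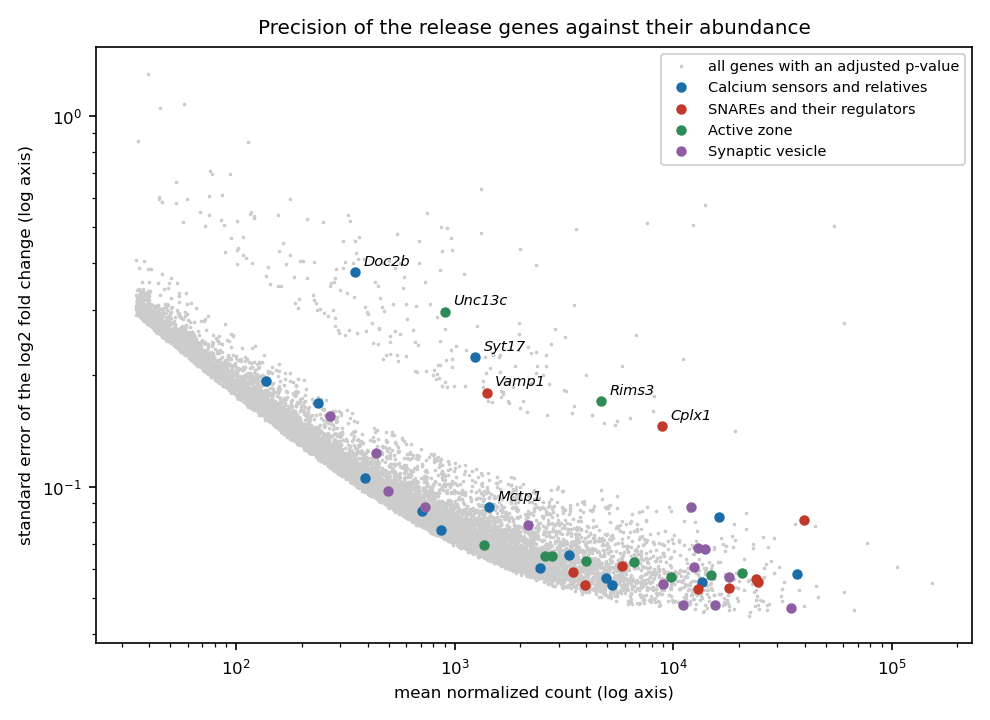
Standard error of the log2 fold change against mean normalized count, both on log axes, for all 13060 genes with an adjusted p-value (grey) and the 49 release genes among them (coloured by role). Doc2b, Unc13c, Syt17, Vamp1, Rims3 and Cplx1 lie in a band above the main cloud, at 2.52 to 3.77 times the error of genes of similar count, and Mctp1 lies in the cloud.

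Other genes of the pathway were taken from 2 lists. Of 48 further release genes 46 were found and 43 had an adjusted p-value, 22 positive and 21 negative, the median log2 difference being 0.0044. None was called with the authors' adjusted p-values, beside 0.513% of all genes tested. An unadjusted 0.05 was passed by 4, all positive (9.30%, beside 8.10% of all genes tested, 4.56% positive): Cplx3, Syt6, Cadps2 and Stxbp2. Cplx3, a complexin of deep-layer and subplate neurons, had a log2 difference of 1.17 ± 0.32 (adjusted p = 0.0537) in the authors' deposited table. Syt6, a synaptotagmin of deep-layer neurons, was at 0.57 ± 0.21 (adjusted p = 0.281) in the authors' deposited table. The negative gene with the smallest p-value was the RIM gene Rims4, at -0.10 ± 0.07 (adjusted p = 0.862) in the authors' deposited table.

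Vesicle endocytosis retrieves membrane after release. Of 23 such genes, 14 were positive and 9 negative, the median log2 difference was 0.0075, none was called with the authors' adjusted p-values, beside 0.513% of all genes tested, and 3 passed an unadjusted 0.05, all positive (13.04%, beside 8.10% of all genes tested, 4.56% positive). Dnm3, which encodes a dynamin that cuts vesicles from the membrane, was at 0.24 ± 0.07 (adjusted p = 0.0507) in the authors' deposited table. Pacsin1, a dynamin-binding protein gene, had the smallest p-value of the negative genes, at -0.09 ± 0.05 (adjusted p = 0.74) in the authors' deposited table.

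Markers of other cells and of cortical layers are given beside these results, and their values per group were not analysed here. The lists were chosen with earlier results of these data known, so their signs and calls are description only. Over all genes tested 49.4% were positive and 0.513% were called. All 15 deep-layer markers were positive, the median log2 difference being 0.49 and 7 called, and all 9 upper-layer markers were negative, with a median of -0.27 and 2 called. Cplx3 and Syt6 are on the deep-layer list themselves, and Tbr1 is on both the deep-layer and the excitatory neuron list. All 10 markers of striatal projection neurons were positive (median 0.64, 1 called), and so were all 12 oligodendrocyte markers (median 1.203, none called, all 12 at an unadjusted p-value under 0.05). In the authors' deposited table the lowest mean count on these 4 lists was that of Nxph4, at 53.4. Such a mean runs over all libraries, so presence in each group cannot be read from it. General neuronal markers had a median of -0.10 over 9 genes, excitatory neuron markers 0.0011 over 7 (1 called, Camk2a, negative) and interneuron markers -0.01 over 11. Astrocyte markers had a median of -0.10 over 8 genes and microglia markers -0.13 over 7, with none called on the general neuronal, interneuron, astrocyte and microglia lists. The part of these differences in the values of Mctp1, Stx1a, Cplx2 and the other release genes was not tested.

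**Figure D4:**
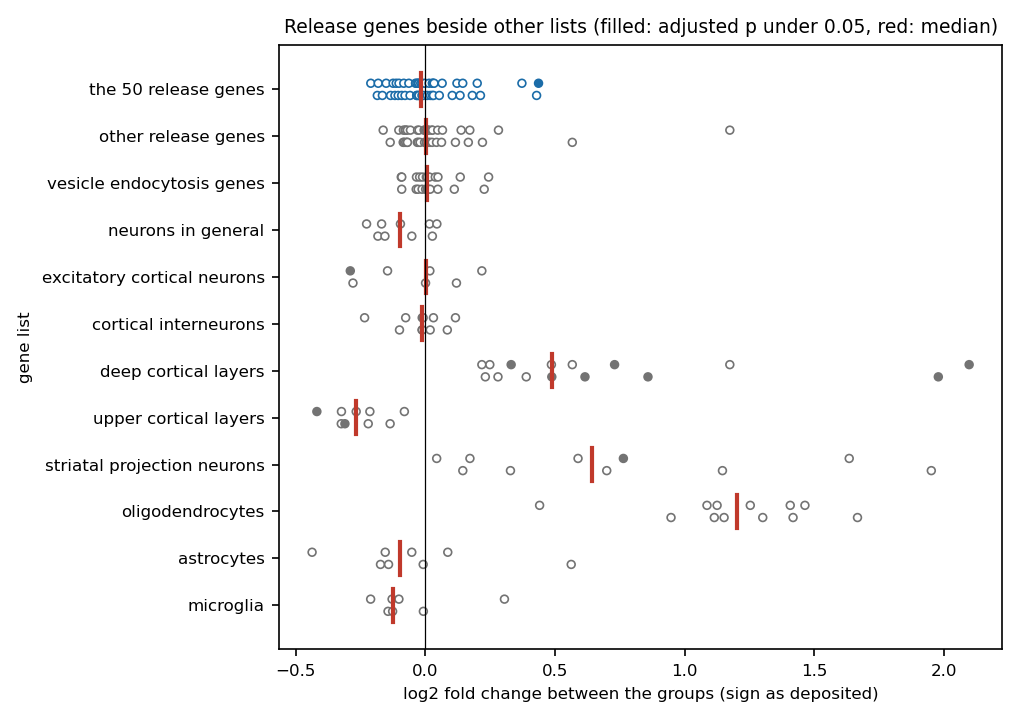
Log2 fold change between CFC and SC (sign as deposited) of each gene with an adjusted p-value, by list; filled points have an adjusted p-value under 0.05 and red bars are medians. The release genes and both pathway lists centre within 0.02 of 0, while deep-layer, striatal and oligodendrocyte markers lie to the positive side and upper-layer markers to the negative side.

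Base composition and transcript length both moved with the differences over all genes tested. Over all genes tested, the median log2 fold change went from 0.03 in the fifth of genes with the lowest GC content of the longest transcript to -0.03 in the fifth with the highest, computed from the authors' deposited table. Among the 49 release genes, 13 of 24 below their median GC content of 49.9% were positive, and 7 of 25 at or above it. Spearman's rho between GC content and log2 fold change was -0.32 over the 49 release genes and -0.16 over all genes tested. Between transcript length and log2 fold change it was 0.18 and 0.19. GC content and length were themselves related, with a rho of -0.41 and -0.25. Genes share libraries and are not independent. The regression below took GC content, length and mean count together, so the part of each was not separated. Mctp1 had a GC content of 43.4%, Pclo of 45.4%, Cplx2 of 53.7% and Stx1a of 57.9%. When the Wald statistic was first regressed on GC content, length and mean count, Mctp1 was still called, with an adjusted p-value of 0.00155, and it was the only release gene called. The adjusted p-value of Stx1a went from 0.0884 to 0.240 with this regression, that of Cplx2 from 0.187 to 0.313 and that of Pclo from 0.391 to 0.688, while that of Syt10 was 0.517 before and 0.520 after.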

How the data were processed

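Libraries of polyadenylated RNA were made with the KAPA mRNA HyperPrep kit from 100 ng of RNA, per the labels' protocols. Trimmomatic, Subread and DESeq2 and the build mm10 are named in the submitters' processing notes; their versions, roles and the strand setting are not given in the sources used here. The authors deposited 1 results table. Per the file headers it holds a mean normalized count per gene (a signal averaged by the authors over the libraries), a log2 fold change with its standard error, a Wald statistic (a score), and an unadjusted and an adjusted p-value. The smallest adjusted p-values match a Benjamini-Hochberg correction for 14432 genes, and genes with a mean count of 34.8 or less have none. Only 13060 listed genes carry one, so that correction covered genes that are not listed. Corrections recomputed here ran over listed genes only, except Bonferroni, which used 14432. The depth of single libraries is unknown, and no library was dropped or imputed here.

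The design had named the deposited adjusted p-values, with a threshold of 0.05, as the test of such a table, and they were used. Intervals of 95% are normal intervals built from each deposited standard error. Standard errors were divided by the running median over 201 genes of nearest mean count. Positions, transcript lengths, GC content and exon overlaps came from GENCODE M21 on GRCm38, which held all 50 release genes. A symbol with several IDs was taken at its highest mean count. Python 3.11.15, numpy 2.4.6, pandas 2.3.3 and scipy 1.17.1 were used, and the recomputed tests were tested on simulated data. The members and lists were chosen with earlier results of these data known. Named in full were release genes with an adjusted or unadjusted p-value under 0.05 and, in each role, those with the highest and lowest log2 fold change and the highest level per kb; the others were added by family. Alternatives were other thresholds, filters, null hypotheses and lengths.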

Additional observations from a re-analysis of the deposited data

How the results depend on the processing

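No paired analysis was possible because per-library values were not analysed here, and for the same reason no library could be left out. The count of release genes called, 1, was 2 at a threshold of 0.1 and 0 with a change of at most 1.2-fold as the null hypothesis, where the adjusted p-value of Mctp1 was 1. It was 1, Mctp1 each time, with no filter on the mean count (adjusted p-value 0.00109), with a mean count of at least 100 (8.21e-04), with a Bonferroni adjustment (0.00977) and after regression on GC content, length and mean count (0.00155), which was chosen after the data had been seen. The count over all genes, 67, was 101 at a threshold of 0.1, 21 with Bonferroni and 2 with the null of 1.2-fold; these settings are looser or stricter by construction. The other settings gave 60 to 68 genes. For the 27 release genes named by rule, adjusted p-values were recomputed one by one under 5 of these settings. The threshold of 0.1, which Stx1a crosses, was not among the 5. Of 135 values, 134 kept their side of the threshold, and the exception was Mctp1 with the null of 1.2-fold. Only Mctp1 of the 27 had been called as deposited, and Bonferroni and the null of 1.2-fold, being stricter, could not add calls. This tally is therefore a weak test of stability. The other release genes enter only through the counts. The median log2 fold change of the release genes, -0.02, was -0.01 as a mean weighted by precision, and the mean count minimum of 100 removed none of the 49. Precision limited both scarce genes and genes with wide errors for their count. Mctp2, at a mean count of 31.6, would have needed a log2 fold change of 1.38 to reach the smallest Wald statistic called. For Doc2b, at a mean count of 350, the bound was 1.39, and for Unc13c, at 900, it was 1.09.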
